A study of Mus musculus with 3 samples.

Results

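The 7 Wnt ligand genes Wnt3, Wnt3a, Wnt4, Wnt7b, Wnt10a, Wnt10b and Wnt16 were followed across the cell classes of the mouse epidermis at the onset of hair follicle formation. They were taken by name, with earlier results of these data known. All 7 were among the 14656 genes measured in every library, beside 7 other Wnt ligand genes. Transcripts were counted in single cells of the back skin epithelium of wild-type C57BL/6JOlaHsd mouse embryos at E14.5. Cells of 2 libraries had been sorted for MAdCAM-1, an adhesion molecule on placode cells, and are called placode-enriched. The third library held live epithelial cells sorted without that gate and is called total epithelium. Sheets of 3 to 4 littermates were pooled for each library, and the submitters describe the 2 placode-enriched libraries as biological replicates. All 3 libraries share genotype, strain and age, so the comparisons below are between cell classes within libraries.

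Wnt proteins are secreted signals that reach the cell surface only after a fatty acid has been attached to them by the enzyme Porcn and after Wls has carried them through the secretory pathway. On the receiving cell they bind Frizzled receptors with Lrp5 or Lrp6, and the main branch of the pathway then stabilises beta-catenin, which works in the nucleus with Lef and Tcf factors. In embryonic skin this signal from the epidermis is needed for the hair placode, a local thickening of the epidermis, to form.

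The 7 ligands share the site at which the fatty acid is attached by Porcn, a serine. The codons around it are shown because this site is what the 7 genes have in common as substrates, and the transcript of the enzyme is described below. They were read 5′ to 3′ along the coding strand from GENCODE transcripts on GRCm38, with the serine codon in capitals.
Wnt10b: tgccatggaacgTCAggcagctgc
Wnt3: tgccacgggttgTCCggcagctgc
Wnt10a: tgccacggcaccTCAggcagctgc
Wnt4: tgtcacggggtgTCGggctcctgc
Wnt7b: tgtcacggtgtgTCAggctcctgt
Wnt3a: tgccacgggctaTCTggcagctgt
Wnt16: tgccacggagttTCCggctcctgt
Of the 24 positions, 14 were identical in all 7 genes. Each site was found by searching the translated transcript for a fixed pattern of residues around the serine. Part of this identity was therefore set by the search. Set against Wnt10b, Wnt10a was identical at 21 positions, Wnt3 at 19, Wnt3a at 17 and Wnt4, Wnt7b and Wnt16 at 16. The serine codon itself was TCA in Wnt10b, Wnt10a and Wnt7b, and TCC in Wnt3 and Wnt16.

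The sites lie in coding exons. That of Wnt10b is at chr15:98772878-98772901 on the minus strand, in exon 5 of 5, and that of Wnt7b at chr15:85537812-85537835 on the minus strand, in exon 4 of 4. The Wnt3 site is at chr11:103812314-103812337 on the plus strand, in exon 4 of 5, and the Wnt3a site at chr11:59250053-59250076 on the minus strand, in exon 4 of 4. Wnt10a has its site at chr1:74803156-74803179 on the plus strand, in exon 4 of 4. Those of Wnt4, at chr4:137296345-137296368 in exon 5 of 5, and Wnt16, at chr6:22297800-22297823 in exon 4 of 4, are also on the plus strand.

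Several of these genes sit beside another Wnt gene on GRCm38. Wnt10a and Wnt6 lie 6194 bases apart on chromosome 1, Wnt3a and Wnt9a 16176 bases apart and Wnt3 and Wnt9b 24329 bases apart on chromosome 11, and Wnt10b and Wnt1 11707 bases apart on chromosome 15. Wnt7b is overlapped on the other strand by AU022754, and the strand setting of the counting is not given in the sources used here, so reads from the stretch they share may belong to either gene. No annotated gene overlaps the other 6 ligands. No 60-base stretch of any ligand except Wnt4 recurs in another gene's transcript, and in Wnt4 2.82% of such stretches do.

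The libraries held 1507, 1569 and 1583 kept cells in placode-enriched library 1, placode-enriched library 2 and total epithelium, with a median of 21642, 23419 and 21975 UMIs (unique molecular identifiers, each marking 1 captured RNA molecule) per cell. Per library pair 1 to 2 cell barcodes were shared. Cells were clustered without any Wnt gene or naming marker, and the 14 clusters were named from marker genes. Placode-like clusters (4, 7, 11 and 12) carried at least 6 of 8 markers such as Dkk4, Edar, Shh and Lhx2, and held 612, 668 and 78 cells in the 3 libraries in the order above. Suprabasal-like clusters (8 and 10) held 76, 90 and 313 cells, of which 75, 89 and 244 lay in cluster 8. Cluster 8 carried 4 of 8 suprabasal markers, the fewest allowed, and 5 of 7 basal markers. Cluster 10 carried 8 of 8 suprabasal and 2 of 7 basal markers. Basal epidermis-like clusters (0, 1, 2, 5, 6 and 9), with all 7 basal markers, held 579, 571 and 1144 cells. These are called placode, suprabasal and basal cells from here on. The basal cells of the placode-enriched libraries passed the MAdCAM-1 gate and lay mostly in clusters 2, 5 and 9, whereas those of total epithelium lay mostly in clusters 0, 1 and 6.

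Cluster 3, with 239, 240 and 28 cells, was meant to hold the placode edge. It rests on Sostdc1, a Wnt and Bmp inhibitor, alone, at 896 CPM (counts of UMIs per 1000000 UMIs of the class or cluster), and it is therefore called Sostdc1-high and given no cell type name. The gated basal clusters 2, 5 and 9 were close to it, at 845, 676 and 822 CPM of Sostdc1. Of the 8 placode markers cluster 3 carried 5, and of the 7 basal markers it lacked only Krt15. A further 21 cells, 20 of them from total epithelium, carried melanoblast markers and served as a class that should lack most epidermal transcripts.

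The ligands parted into those that stayed or stood higher in the placode and those that stood lower. Relative to basal cells, Wnt10b and Wnt3 were higher in placode cells, Wnt10a did not pass the test, and Wnt7b, Wnt4, Wnt3a and Wnt16 were lower. This makes 2 of 7 higher and 4 of 7 lower, by edgeR's quasi-likelihood test on UMIs summed per library and class, with the library as a block and an adjusted p under 0.05. Among all 6296 genes tested, 18.9% were called higher and 18.4% lower. The median log2 fold change of the 7 ligands was -1.35, against 0.00 for all genes tested. Since the 7 were chosen with earlier results of these data known, their counts and medians, here and below, are descriptions. Here and below, in a class sum, fewer cells with a transcript and less transcript per cell cannot be told apart from the level alone.

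**Figure D1:**
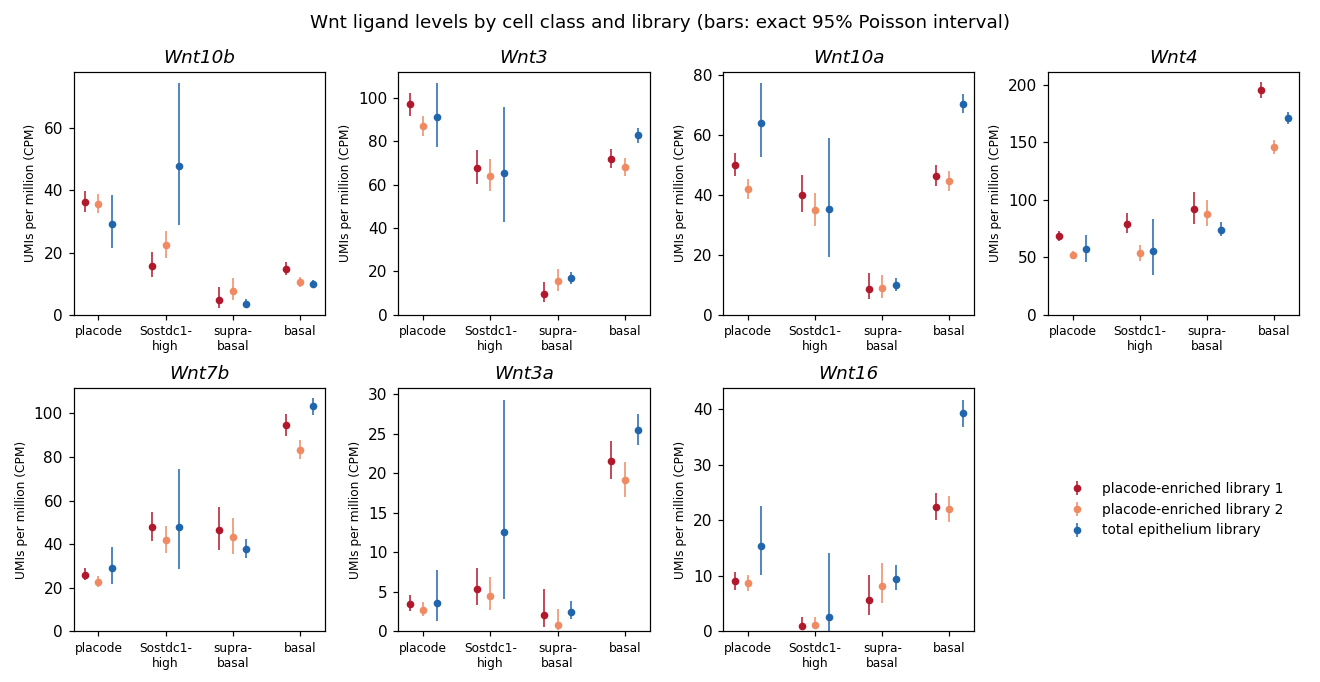
Level of each ligand in CPM (vertical axes, starting at 0) in placode, Sostdc1-high, suprabasal and basal cells of each of the 3 libraries. Points are summed UMIs and bars are exact Poisson intervals, which cover counting error only. Wnt10b is high in placode cells at 29.1 to 36.3 CPM, and Wnt4, Wnt7b, Wnt3a and Wnt16 have their highest points in basal cells.

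Wnt10b, a ligand of the beta-catenin branch and an early mark of the hair placode, stood at 36.3, 35.7 and 29.1 CPM in placode cells of placode-enriched libraries 1 and 2 and total epithelium. In basal cells of the same libraries it stood at 14.8, 10.4 and 9.99 CPM. All 3 placode values lay above all 3 basal values, and the log2 fold change was 1.51 ± 0.10 (SE, 3 libraries). The placode share of cells with a Wnt10b UMI, after every cell had been thinned to 5000 UMIs, was 16.3%, 19.6% and 16.7%, against 7.25%, 5.43% and 4.98% of basal cells. Before thinning it was 50.3%, 50.3% and 41.0%, against 29.9%, 24.2% and 19.3%. No UMI of Wnt10b was seen in the 20 melanoblast cells of total epithelium, which allows a share of up to 16.8%; their median depth was 21282.5 UMIs, against 21039 UMIs in placode cells of that library.

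Sostdc1-high cells were the class in which the libraries did not line up for Wnt10b. It stood at 15.8 and 22.3 CPM in the placode-enriched libraries and at 47.7 CPM in total epithelium, where it rested on 19 UMIs from 28 cells (95% interval 28.7 to 74.5 CPM). The fold change over basal cells was 0.75 ± 0.15 on the log2 scale, and 1.41 without placode-enriched library 1; the call was lost in the fit with no replicate block (0.88, adjusted p = 0.0526). The log2 ratio to basal cells was 0.09 and 1.10 in the placode-enriched libraries and 2.26 in total epithelium. With 1 total epithelium library, that difference was not tested. The standard errors in this paragraph rest on a spread pooled over all genes and do not reflect this range. Placode cells exceeded Sostdc1-high cells by 0.82 ± 0.12 (adjusted over all genes, past the threshold). They were above them in both placode-enriched libraries and below them in total epithelium. This call was lost without placode-enriched library 1 (0.46, adjusted p = 0.144), in DESeq2 (0.60, adjusted p = 0.308) and with no replicate block (0.72, adjusted p = 0.0751).

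Suprabasal cells had less Wnt10b than basal cells, at 4.63, 7.70 and 3.61 CPM, a log2 fold change of -1.22 ± 0.25. The call was lost without placode-enriched library 1 (-1.04, adjusted p = 0.054) and with thinned cells (-1.08, adjusted p = 0.0692). The highest suprabasal value stayed below the lowest basal value.

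Within the placode, Wnt10b was at 41.4 CPM in cluster 7, which had the highest levels of Shh, the ligand that marks the placode centre, and of the secreted Wnt inhibitor Dkk4. It stood at 35.8 CPM in cluster 12, 32.0 CPM in cluster 11 and 22.8 CPM in cluster 4. In placode-enriched library 1 the values for clusters 7 and 4 were 48.1 CPM (40.9 to 56.1) and 22.9 CPM (14.3 to 34.6), and in library 2 37.3 CPM (32.0 to 43.2) and 21.2 CPM (13.0 to 32.8). Cluster 7 was thus above cluster 4 in both libraries, with counting intervals that overlap only in library 2. Clusters 12 and 11 stood at 34.2 and 32.2 CPM in library 1. In library 2 they stood at 36.8 and 35.2 CPM, close to cluster 7. Clusters and ligands were not tested against each other, since cells of 1 library are not replicates.

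Wnt3, which also acts through beta-catenin, was slightly higher in placode than in basal cells and far lower in suprabasal cells. In placode cells it stood at 97.0, 86.8 and 91.3 CPM, against 72.0, 68.0 and 82.7 CPM in basal cells. The placode values were all above the basal ones, and the log2 fold change was 0.33 ± 0.06, adjusted p = 0.000294. This call was lost without placode-enriched library 1 (0.26, adjusted p = 0.0563) and in the fit with no replicate block (0.30, adjusted p = 0.0715). With basal clusters named by a stricter marker rule it was 0.17, adjusted p = 0.0421, and with coarser clusters (resolution 0.5) 0.18, adjusted p = 0.0243. The rise holds against basal cells as a whole, not against every basal cluster. In total epithelium the placode value lay within the counting interval of basal cluster 0 (90.6 CPM, 83.3 to 98.4). In placode-enriched library 2 basal cluster 5 stood at 76.2 CPM and placode cluster 11 at 75.1 CPM. Basal clusters 2 and 9 stood at 54.4 to 68.6 CPM in the placode-enriched libraries.

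In Sostdc1-high cells Wnt3 stood at 67.7, 64.2 and 65.3 CPM, below the basal value of its own library each time. That difference did not pass the test, at -0.15 ± 0.08 on the log2 scale and an adjusted p of 0.136. It passed at resolution 2 (-0.27), with doublets kept (-0.20) and under the stricter basal rule (-0.35). Placode cells were above Sostdc1-high cells by 0.50 ± 0.07. In suprabasal cells Wnt3 stood at 9.78, 15.4 and 16.8 CPM, a log2 fold change against basal cells of -2.40 ± 0.14.

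Wnt10a, whose loss causes ectodermal dysplasia in humans, had 49.96, 41.8 and 64.0 CPM in placode cells, against 46.3, 44.6 and 70.4 CPM in basal cells. The ranges overlapped, placode cells were above basal cells in 1 of 3 libraries, and the log2 fold change was -0.03 ± 0.07 (adjusted p = 0.743). Its sign changed under 5 of 14 alternative settings, none of which gave a call. Both classes were higher in total epithelium than in the placode-enriched libraries. In Sostdc1-high cells it stood at 40.0, 34.9 and 35.1 CPM, below basal cells by 0.38 ± 0.10 and with placode cells above them by 0.35 ± 0.09. The fall against basal cells was not called without placode-enriched library 2, with no replicate block or in DESeq2 (adjusted p = 0.0547, 0.051 and 0.0512). The difference from placode cells was not called without placode-enriched library 1 or 2, with no replicate block, in DESeq2 or with thinned cells (adjusted p from 0.0784 to 0.188).

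In suprabasal cells Wnt10a fell as Wnt3 did. It stood at 8.75, 8.85 and 9.93 CPM, a log2 fold change of -2.64 ± 0.13 against basal cells. In total epithelium the melanoblast cells had 8.39 CPM of Wnt10a (4 UMIs, 2.28 to 21.5 CPM) and 10.5 CPM of Wnt3 (5 UMIs), and the suprabasal values of that library, 9.93 and 16.8 CPM, were within or close to the counting intervals of that background.

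Wnt10a was not even within the placode. Over all libraries it stood at 62.9 CPM in cluster 7 and 51.4 CPM in cluster 11, against 36.3 and 35.5 CPM in clusters 4 and 12. In placode-enriched library 1 clusters 7, 11, 4 and 12 had 67.5, 53.8, 45.7 and 38.8 CPM, and in library 2 58.8, 43.9, 26.5 and 31.2 CPM. The counting intervals of clusters 11 and 4 overlapped in both libraries. Cluster 12 had the highest level of the proliferation gene Mki67 in the placode (288 CPM), and cluster 7 the lowest (25.6 CPM). Over all libraries cluster 11 had more Mki67 than cluster 4 (182 against 135 CPM) and also more Wnt10a. A link between the 2 genes was not tested.

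Wnt4 and Wnt7b were lower in all 3 other classes than in basal cells, and in each stood above the 8.39 and 10.5 CPM of the melanoblast cells. Those melanoblast values rest on 4 and 5 UMIs, with counting intervals of 2.28 to 21.5 and 3.40 to 24.5 CPM. Placode Wnt7b in placode-enriched library 2, at 22.6 CPM, lay within the latter. In total epithelium its interval in placode cells (21.5 to 38.4 CPM) overlapped that of the melanoblast cells. Wnt4, known for its role in kidney and female reproductive tract development, stood at 68.4, 52.0 and 56.9 CPM in placode cells and at 79.2, 53.6 and 55.2 CPM in Sostdc1-high cells. In suprabasal cells it stood at 92.1, 88.1 and 74.2 CPM, and in basal cells at 196, 146 and 171 CPM. No value of the other classes reached the lowest basal value. The log2 fold changes against basal cells were -1.53 ± 0.05 in placode, -1.42 ± 0.07 in Sostdc1-high and -1.06 ± 0.09 in suprabasal cells. Placode and Sostdc1-high cells did not pass the test against each other, at -0.10 ± 0.08 (adjusted p = 0.35), though a fall was called at resolution 2 (-0.19) and with the other gene set used to cluster (-0.23).

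Wnt7b, which has roles in lung growth and the adult hair cycle of the mouse, set placode and Sostdc1-high cells apart. It stood at 26.0, 22.6 and 29.1 CPM in placode cells and at 47.6, 41.7 and 47.7 CPM in Sostdc1-high cells. Suprabasal cells had 46.3, 43.1 and 37.8 CPM, and basal cells 94.7, 83.4 and 103 CPM. The placode values were the lowest in every library, the basal values the highest, and Sostdc1-high and suprabasal values overlapped. The log2 fold changes against basal cells were -1.89 ± 0.07, -1.04 ± 0.08 and -1.22 ± 0.10 in placode, Sostdc1-high and suprabasal cells, and that of placode against Sostdc1-high cells was -0.84 ± 0.10. Within the placode the lowest level was in cluster 7, at 17.3 and 15.8 CPM in placode-enriched libraries 1 and 2. The highest was in cluster 4 in library 1, at 39.5 CPM, and in cluster 12 in library 2, at 29.2 CPM. Wnt10b, by contrast, had its highest level in cluster 7 in library 1. In library 2 clusters 7, 12 and 11 were close, at 37.3, 36.8 and 35.2 CPM of Wnt10b.

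Wnt3a, a ligand widely used to activate beta-catenin in culture, was low outside basal cells. Placode cells had 3.43, 2.71 and 3.56 CPM and Sostdc1-high cells 5.27, 4.41 and 12.6 CPM, the last from 5 UMIs. Suprabasal cells had 2.06, 0.770 and 2.45 CPM, against 21.5, 19.1 and 25.4 CPM in basal cells. Each other class lay below basal cells in every library, with log2 fold changes of -2.75 ± 0.13, -2.02 ± 0.19 and -3.57 ± 0.23 in placode, Sostdc1-high and suprabasal cells. Placode and Sostdc1-high cells did not pass the test against each other (-0.73 ± 0.29, adjusted p = 0.0508), but did at resolution 2 (-0.87) and with the other gene set (-0.72). After thinning, a Wnt3a UMI was found in 1.80%, 1.05% and 3.85% of placode cells, against 10.4%, 7.36% and 9.88% of basal cells.

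Wnt16, known for its role in cortical bone in mouse and human, separated placode from Sostdc1-high cells. Placode cells had 8.97, 8.59 and 15.4 CPM, and Sostdc1-high cells had 0.957, 1.10 and 2.51 CPM, from 4, 5 and 1 UMIs. Suprabasal cells had 5.66, 8.08 and 9.42 CPM, against 22.4, 21.97 and 39.2 CPM in basal cells. Relative to basal cells the log2 fold change was -1.35 ± 0.10 in placode, -4.41 ± 0.26 in Sostdc1-high and -1.91 ± 0.15 in suprabasal cells. Placode cells exceeded Sostdc1-high cells by 3.05 ± 0.35, with no overlap between them. The share of Sostdc1-high cells with a Wnt16 UMI before thinning was 1.26%, 2.08% and 3.57%, against 24.2%, 27.5% and 46.9% of basal cells; in melanoblast cells it was 10%, from 2 of 20 cells. Cells with a UMI had on average 1.33, 1 and 1 Wnt16 UMIs among Sostdc1-high cells, 1.81, 2.11 and 1.86 among placode cells and 2.39, 2.24 and 1.89 among basal cells.

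Basal cells were not uniform for Wnt16 either. It stood at 12.4 and 15.1 CPM in clusters 2 and 9, against 30.8 to 44.3 CPM in basal clusters 0, 1, 5 and 6. Clusters 2, 5 and 9 held mostly placode-enriched cells, and the others mostly total epithelium cells. Cluster 2 held enough cells of every library to be read within each, and there Wnt16 had 6.89, 17.3 and 16.8 CPM. The total epithelium cells of cluster 2 thus had a value close to that of placode-enriched library 2 and below the 32.0 to 44.7 CPM of the same library's cells in clusters 0, 1 and 6. Placode cells had 8.97, 8.59 and 15.4 CPM of Wnt16 in the same libraries. In placode-enriched library 1 their value was above that of cluster 2 and within its counting interval (4.58 to 9.96 CPM). It was below cluster 2 in library 2 and close to it in total epithelium. The lower Wnt16 of placode cells thus holds against basal cells as a whole, not against every basal cluster. Wnt10a in cluster 2 was 43.8, 46.7 and 49.1 CPM, while clusters 0, 1 and 6 of total epithelium had 62.1 to 79.7 CPM. Whether the gate has a part in the basal values was not tested.

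**Figure D2:**
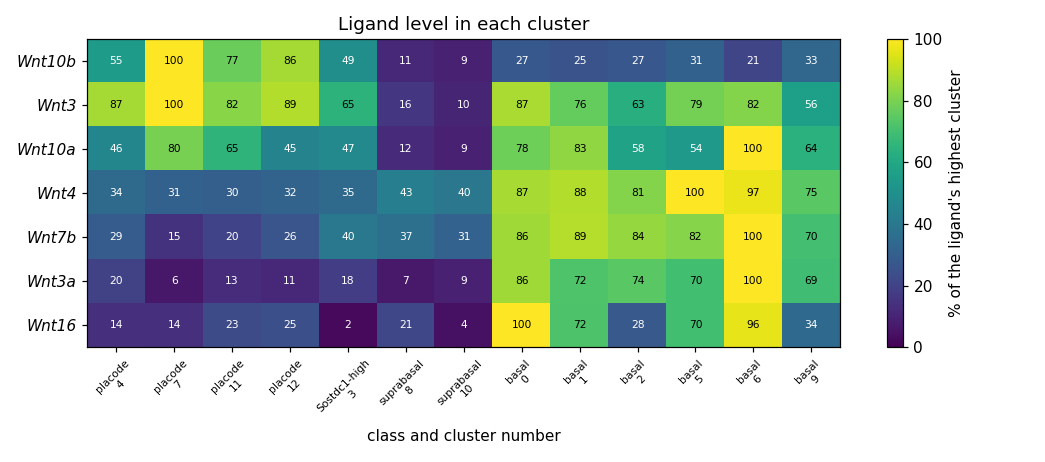
Ligand level in each of 13 clusters as a percentage of that ligand's highest cluster (colour and printed number), over all 3 libraries together. Clusters are ordered as placode, Sostdc1-high, suprabasal and basal. Cluster 7 is at 100% for Wnt10b and Wnt3 and cluster 3 at 2% for Wnt16.

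The calls of the 7 ligands were also counted in the other comparisons. In Sostdc1-high cells Wnt10b was called higher than in basal cells and Wnt3a, Wnt4, Wnt7b, Wnt10a and Wnt16 lower, 1 and 5 of 7, where 18.1% of the 6084 genes tested were called higher and 17.7% lower. In suprabasal cells all 7 were called lower and 0 higher, where 14.9% of 6174 genes were called lower and 14.6% higher; at an unadjusted p under 0.05 and in DESeq2 0 ligands were higher too. Between placode and Sostdc1-high cells Wnt3, Wnt10a, Wnt10b and Wnt16 were called higher and Wnt7b lower in the placode, 4 and 1 of 7, where 13.3% and 12.1% of 5609 genes were. The median log2 fold change of the 7 ligands was -1.04 in Sostdc1-high and -1.91 in suprabasal cells, and 0.35 between placode and Sostdc1-high cells, against 0.02, -0.03 and 0.00 for all genes tested.

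**Figure D3:**
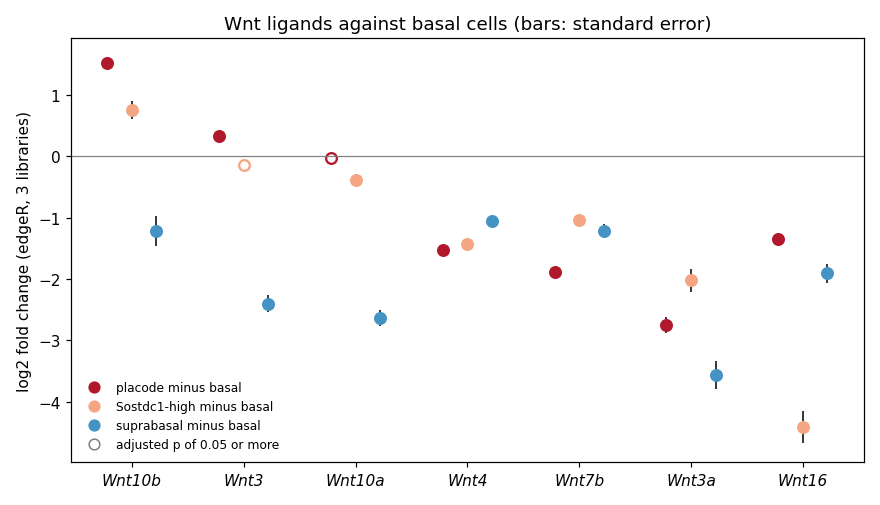
Log2 fold change of each ligand against basal cells (vertical axis) in placode, Sostdc1-high and suprabasal cells, from edgeR over 3 libraries. Bars are standard errors. For Sostdc1-high cells these rest on a spread pooled over all genes, and for the other classes in part on such a spread. Open circles did not pass an adjusted p of 0.05. Wnt10b is at 1.51 in placode cells and at -1.22 in suprabasal cells, and Wnt16 has its lowest value, -4.41, in Sostdc1-high cells.

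The ligands were also counted per cell. After thinning to 5000 UMIs a placode cell showed UMIs of 1.21, 1.09 and 1.29 of the 7 ligands on average in the 3 libraries. Sostdc1-high cells showed 1.03, 0.983 and 1.14, suprabasal cells 0.632, 0.889 and 0.696, and basal cells 1.66, 1.51 and 1.87. Basal cells thus showed the most ligands in every library, and the melanoblast cells showed 0.15. At least 3 ligands were seen in 10.1%, 7.19% and 7.69% of placode cells, against 21.4%, 19.1% and 26.4% of basal cells.

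The make-up of the summed ligand transcripts shifted with the class. Wnt10b supplied 12.5%, 14.3% and 10.0% of the UMIs of the 7 ligands in placode cells, against 3.17%, 2.64% and 1.99% in basal cells. Wnt4 supplied 23.6%, 20.8% and 19.7% in placode cells and 54.4%, 51.2% and 48.1% in suprabasal cells, against 41.9%, 37.1% and 34.1% in basal cells. The 7 ligands together stood at 290, 250 and 289 CPM in placode cells, against 468, 393 and 502 CPM in basal cells.

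**Figure D4:**
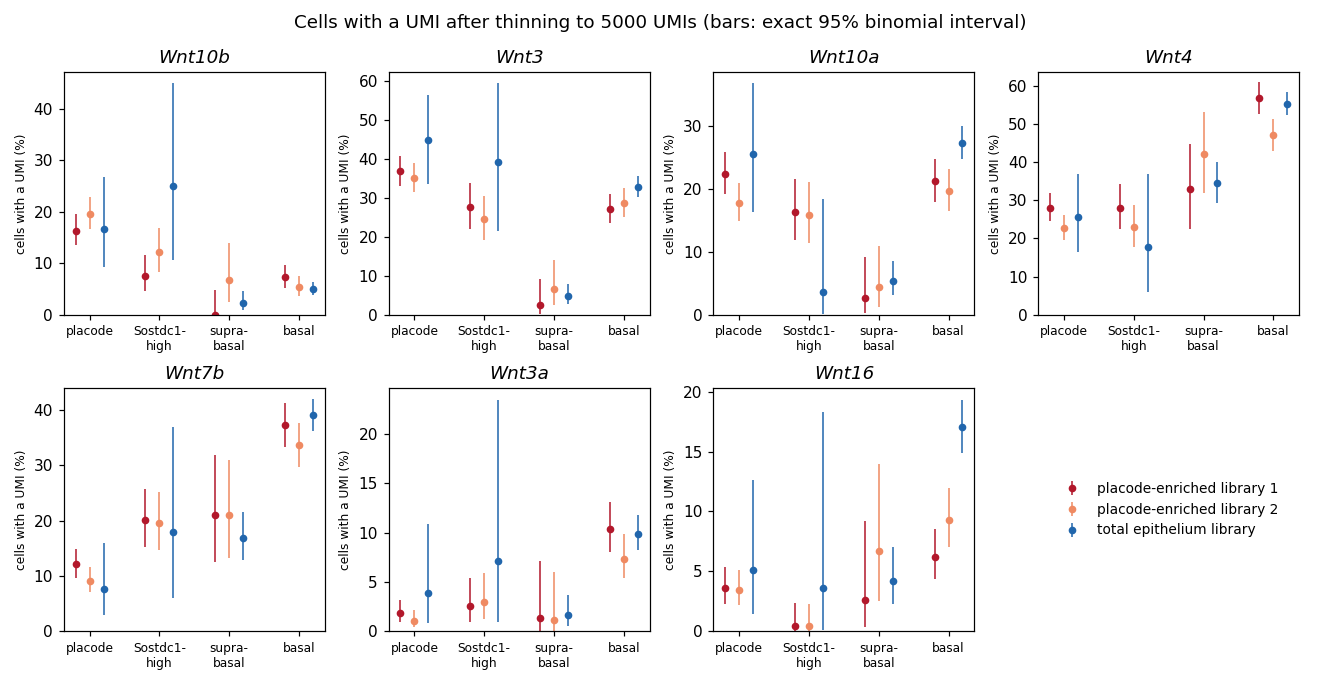
Percentage of cells with at least 1 UMI of each ligand (vertical axes, starting at 0) after every cell was thinned to 5000 UMIs, by class and library. Points are shares and bars exact binomial intervals, which cover counting error only. For Wnt4 the 3 basal points, at 47.1% to 56.8%, lie above all other classes.

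Ligand profiles were compared across the 12 sums of 4 classes and 3 libraries. The closest were Wnt3 and Wnt10a (Pearson r = 0.97 on log2(CPM + 1)) and Wnt4 and Wnt7b (0.89), followed by Wnt3a and Wnt7b (0.79) and Wnt3 and Wnt10b (0.78). The lowest value was that of Wnt10b and Wnt4 (-0.48), and Wnt16 was closest to Wnt4 (0.66). These are descriptions, since sums of 1 library share its depth and its embryos. Among 6001 genes not used for clustering, the nearest to Wnt10b was Msx2, a homeobox factor of ectodermal organs (0.96), followed by Kdm2a and Zfp358 (0.96 each). Odc1, the first enzyme of polyamine synthesis, was nearest to Wnt3 (0.99), followed by Six5 and Dnmt3b (0.98 each). Wnt10a was closest to Wnt3, then to Zyx, a protein of cell adhesion sites (0.97), and Gjb6, a gap junction protein of the epidermis (0.96). Nearest to Wnt3a were the cytokine receptor Lifr (0.97), Atxn10 (0.97) and the laminin receptor Bcam (0.96). The nearest genes of Wnt7b were Txndc17, the interleukin receptor Il1r1 (0.93 each) and Bend6 (0.92), those of Wnt4 were Gm12108 (0.97), Cotl1 (0.92) and Atp5f1 (0.91), and those of Wnt16 were Pcsk2, a prohormone protease (0.94), Idh3g (0.92) and Pih1d1 (0.90).

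Other Wnt ligands were counted in the same way. Of 12 listed, 7 were measured in all libraries and 6 passed the filter on low counts. Of these, 5 were called lower in placode than in basal cells and 0 higher by edgeR or DESeq2. Of all genes tested, edgeR called 18.4% lower and 18.9% higher. At an unadjusted edgeR p under 0.05, 1 of the 6 ligands was higher. Wnt2, Wnt9a and Wnt9b reached the filter (0.658 CPM in at least 2 sums) in basal cells but not in placode cells; of the other 3, Wnt6 and Wnt7a were called lower. Wnt6, the neighbour of Wnt10a, averaged 276 ± 11.4 CPM in placode cells and 402 ± 6.57 CPM in basal cells (SD, 3 libraries), a log2 fold change of -0.55 ± 0.04. The Wnt7a values were 16.8 ± 2.79 CPM and 26.9 ± 1.28 CPM in placode and basal cells, -0.63 ± 0.09. Wnt5b, a ligand of the branch without beta-catenin, did not pass the test in placode cells (0.38 ± 0.16, adjusted p = 0.0678) and was called higher in Sostdc1-high than in basal cells (0.77 ± 0.22). That call was lost in DESeq2 (0.81, adjusted p = 0.0908), with no replicate block, without placode-enriched library 1, with doublets kept and with thinned cells (0.27, adjusted p = 0.742). Placode cells held few UMIs of the other 3 called ligands. Summed over the libraries, Wnt9b had 15 UMIs in placode and 176 in basal cells, a CPM ratio of 0.157 (95% counting interval 0.0859 to 0.266). Wnt9a had 4 and 70 UMIs, a ratio of 0.105 (0.0279 to 0.281), and Wnt2 had 1 and 57 UMIs, a ratio of 0.0323 (0.000803 to 0.187). Wnt5a, with 11 and 19 UMIs, was not tested.

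The machinery that ligand-producing cells need was also lower in the placode in part. Wls, the carrier of all lipid-modified Wnt proteins, averaged 153 ± 14.2 CPM in placode, 172 ± 7.37 CPM in Sostdc1-high and 153 ± 16.4 CPM in suprabasal cells, against 324 ± 41.2 CPM in basal cells (SD, 3 libraries). Its log2 fold change against basal cells was -1.08 ± 0.04 in placode, -0.89 ± 0.06 in Sostdc1-high and -1.14 ± 0.10 in suprabasal cells. Porcn, the enzyme that attaches the fatty acid to the serine encoded at the printed site, was scarce, at 2.57 ± 1.19 CPM in placode and 3.05 ± 0.127 CPM in basal cells, and did not pass the test in any comparison (-0.04 ± 0.23 in placode cells).

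On the receiving side genes were called in both directions. Of 15 receptor, co-receptor and R-spondin genes tested, 7 were called higher and 4 lower in placode than in basal cells by edgeR, and 4 and 3 by DESeq2, where 18.9% and 18.4% of all genes were called by edgeR. Those with the largest fold changes were Rspo3, a secreted booster of Wnt signalling, Rspo1 of the same family and Lgr6, a receptor for R-spondins. Lgr6 averaged 33.4 ± 4.05 CPM in placode and 13.3 ± 5.80 CPM in basal cells, a log2 fold change of 1.12 ± 0.15. Rspo1 stood at 2.48 ± 1.16 CPM in placode and 0.960 ± 0.133 CPM in basal cells (1.46 ± 0.30), a call lost without placode-enriched library 1 (1.22, adjusted p = 0.0771). Rspo3, which likewise reached the filter in basal cells but not in placode cells, had 3 UMIs in placode and 91 in basal cells, a CPM ratio of 0.0607 (0.0123 to 0.183).

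Among the tested genes listed as inhibitors of Wnt signalling the calls were in 1 direction, but the untested Sostdc1 went the other way. The list is broad, and Dkk3 and the glypicans Gpc3 and Gpc4 were among those called higher. Whether each listed gene inhibits the pathway in these cells was not tested. Of 11 tested, 7 were called higher and 0 lower in placode than in basal cells by edgeR, where 18.9% and 18.4% of all genes were. DESeq2 called 6 higher, and 0 were lower at an unadjusted p under 0.05 or in DESeq2. Dkk4 and Sostdc1 were left out as naming markers, and their levels went in opposite directions. Sostdc1 stood at 314, 282 and 235 CPM in placode cells, below the 809, 696 and 508 CPM of basal cells in the same libraries. Dkk4 stood at 552, 441 and 655 CPM in placode cells, against 39.5, 21.5 and 26.6 CPM in basal cells. Sfrp1, Sfrp2, Kremen1 and Apcdd1 did not pass the test. Dkk3 averaged 9.05 ± 2.19 CPM in placode and 1.12 ± 0.954 CPM in basal cells, a log2 fold change of 2.90 ± 0.27. For Wif1, which binds Wnt proteins outside the cell, the values were 101 ± 20.9 CPM and 14.1 ± 9.28 CPM (2.79 ± 0.18), and for the glypican Gpc4 77.6 ± 8.29 CPM and 31.1 ± 2.25 CPM (1.26 ± 0.07).

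Genes listed as nuclear factors and feedback targets of the beta-catenin branch were called in both directions. Of 22 tested, 10 were called higher and 3 lower in placode than in basal cells, where 18.9% and 18.4% of all genes were. DESeq2 called 9 higher and 2 lower. Called lower by edgeR were Myc (log2 fold change -1.18 ± 0.11), Bcl9l (-0.49 ± 0.095) and Tcf7l1 (-0.23 ± 0.08). Ccnd1 did not pass the test (-0.13 ± 0.09). The list is broad, with Apc, Axin1 and Gsk3b not called and Tle1 (1.16 ± 0.09) and Tle4 (1.48 ± 0.09) among those called higher. Sp5, a direct target, averaged 30.6 ± 3.01 CPM in placode and 0.962 ± 0.307 CPM in basal cells, a log2 fold change of 4.99 ± 0.16. Tcf7, a partner of beta-catenin, averaged 24.8 ± 5.80 CPM in placode and 7.93 ± 1.99 CPM in basal cells (1.63 ± 0.10). The feedback inhibitor Nkd1 averaged 6.42 ± 2.35 CPM in placode and 2.07 ± 0.528 CPM in basal cells (1.498 ± 0.26), a call lost with thinned cells (1.21, adjusted p = 0.0627). The lists were drawn up with earlier results of these data known, so their counts are descriptions.

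**Figure D5:**
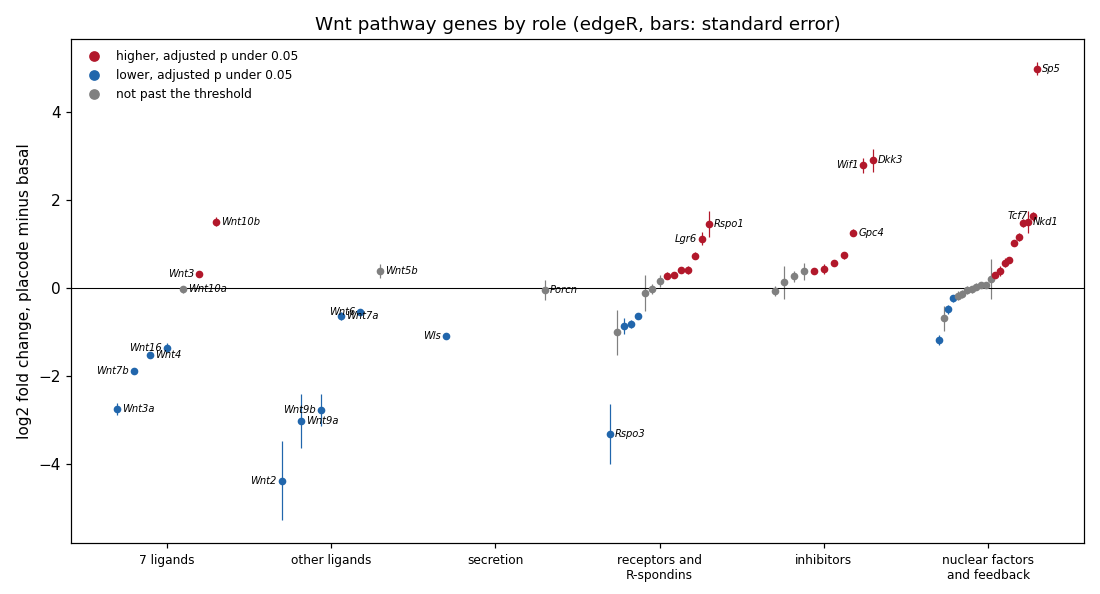
Log2 fold change, placode minus basal, for the tested genes of each role in the Wnt pathway, with standard errors as bars. Red points passed an adjusted p of 0.05 as higher and blue points as lower. In the genes listed as inhibitors 7 of 11 points are red. In the other ligands 5 of 6 are blue, 3 of which reached the filter in basal but not in placode cells. Of all genes tested, 18.9% were called higher and 18.4% lower.

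Markers of other cells differed between the classes, and their part in the ligand values was not tested. The 6 measured fibroblast markers of 8 summed to 1155 to 1570 CPM in placode and 1038 to 1220 CPM in Sostdc1-high cells, against 735 to 861 CPM in basal cells, with Col1a1 at 0 in placode cells of 2 libraries. The 8 suprabasal markers summed to 190 to 329 CPM in placode and basal cells of the placode-enriched libraries, against 966 CPM in placode and 1252 CPM in basal cells of total epithelium. Cd74, the only measured marker of 4 on the immune list, stood at 78.9 to 123 CPM in placode cells, against 14.2 to 45.1 CPM in basal cells. Sox2, the only measured marker of 4 on the Merkel cell list, stood at 2.37 to 5.76 CPM in placode cells, against 0.0771 to 1.07 CPM in basal cells. In suprabasal cells, where all 7 ligands were called lower, the 3 measured periderm markers of 4 summed to 162 to 226 CPM, against 8.64 to 18.4 CPM in basal cells, in which Krt6a was at 0. Hba-a1, the only measured erythroid marker of 4, stood at 1.92 to 7.61 CPM in suprabasal cells, against 0 to 0.386 CPM in basal cells. Fibroblast markers there summed to 215 to 284 CPM and Cd74 stood at 2.97 to 20.1 CPM, both lower than in basal cells of the same library.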

How the data were processed

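The authors deposited UMI counts, which per the values are whole numbers and not normalized; Cell Ranger, Seurat and mm10 are named per the submitters' processing notes. Per the labels' protocols, libraries used 10x Chromium 3′ chemistry version 2, which counts molecules near the transcript's end and does not read the printed sites. The number ending each barcode in the shared placode-enriched table was taken as the library number. The ligands, gene lists and markers were chosen with earlier results of these data known.

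Scrublet (scanpy 1.11.5) called 4, 2 and 18 doublets in placode-enriched libraries 1 and 2 and total epithelium, which were removed; these are few, so doublets can remain. Every cell passed 500 genes and 10% mitochondrial UMIs. Leiden clustering (igraph 0.11.9, resolution 1, 20 neighbours, 30 components, 1000 variable genes) used 7205 genes, 1 of 2 arbitrary sets of the symbols without markers and Wnt genes. A marker counted at 25% of its highest cluster, with 6 of 8 needed for placode, 4 of 8 for suprabasal, 7 of 7 for basal and 5 for melanoblast, and Sostdc1 at 50% for clusters meeting none. These thresholds were chosen with the clusters in view.

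UMIs were summed per library and class (at least 20 cells) and tested with edgeR 4.0.16 (R 4.3.3; TMM, filterByExpr, quasi-likelihood, Benjamini-Hochberg over all genes tested). The library was a block because both classes come from the same libraries. In contrasts with Sostdc1-high cells edgeR pooled the spread over all genes, which makes p-values of called genes very small. Standard errors were derived from the test statistic, so in these contrasts they rest on the same pooled spread. Neither measures the spread of the single gene between libraries there. Such calls are given by fold change and error, and adjusted p-values are printed where a call was missed or lost. In the other contrasts edgeR also moderated each gene's spread between these 3 libraries towards that of all genes. P-values and standard errors there rest in part on this shared spread. Poisson and binomial intervals (95%, exact) cover counting error only. The test was checked on simulated counts. Alternatives were DESeq2 1.42.0, no filter, no replicate block, each library left out, thinning to 5000 UMIs, other resolutions, the other gene set, doublets kept, and other placings of Sostdc1-high and basal clusters. Named were the 7 ligands, the other ligands measured in both tables, Porcn, Wls, the 3 largest called changes of each other list in placode against basal cells and the 3 genes most alike to each ligand. Further genes of a list are named where they limit its counts.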

Additional observations from a re-analysis of the deposited data

Results flagged for a closer look

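Between placode and Sostdc1-high cells, Wnt10b had log2 ratios of 1.20 and 0.68 in the placode-enriched libraries and -0.71 in total epithelium. Wnt4 had -0.21 and -0.04 in the placode-enriched libraries and 0.04 in total epithelium. Both stand out because the total epithelium ratio has the opposite sign. Total epithelium is 1 library with 28 Sostdc1-high cells, so neither difference was tested.

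Outside the genes measured in both tables, the placode-enriched table listed 26 UMIs of Wnt2b, 4 of Wnt8a and 4 of Wnt11, which the comparisons do not use.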

How the results depend on the processing

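The results rest on 3 libraries, and the Sostdc1-high class of total epithelium on 28 cells, so levels there are limited by depth. Of 98, 77, 77 and 76 ligand results under alternatives, 91, 70, 75 and 63 kept direction and side of the threshold in placode against basal, Sostdc1-high against basal, suprabasal against basal, and placode against Sostdc1-high. The causes of the changes below were not tested.

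With no replicate block, genes called higher and lower were 525 and 448 in placode against basal, 611 and 559 in Sostdc1-high against basal, 552 and 471 in suprabasal against basal and 216 and 132 in placode against Sostdc1-high. Ligands called higher were then 1, 0 and 2 in placode against basal, Sostdc1-high against basal and placode against Sostdc1-high. The pairing comes from the shared library. DESeq2 called 668 and 635 genes, 489 and 594 genes, 528 lower genes and 239 and 90 genes in the same comparisons, and 2 ligands higher in the last. With thinned cells the counts were 595 and 571, 423 and 513, 523 and 501, and 271 and 138. Ligands lower in placode than in Sostdc1-high cells numbered 3 at resolution 2 and with the other gene set. The main counts were 1193 and 1161, 1102 and 1079, 902 and 918, and 744 and 676.

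Leaving out 1 library at a time, genes higher and lower ranged from 700 to 1325 and 678 to 1319 in placode against basal, from 400 to 1134 and 486 to 1173 in Sostdc1-high against basal, from 623 to 937 and 536 to 928 in suprabasal against basal and from 244 to 823 and 156 to 732 in placode against Sostdc1-high. Ligands ranged from 1 to 2 higher and from 4 to 4 lower, 1 to 1 and 4 to 5, 0 to 0 and 6 to 7, and 2 to 4 and 1 to 1. The low ends came without placode-enriched library 1 or 2.

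Wnt10a in placode against basal cells ranged from -0.119 to 0.008 with 1 library left out and changed sign without placode-enriched library 2 (0.008), at resolution 2 (0.003), with the other gene set (0.033), with Sostdc1-high cells counted as basal (0.027) and, an alternative added after seeing the data, with the 50% basal rule (0.025). Wnt4 in placode against Sostdc1-high cells ranged from -0.149 to 0.003 with 1 library left out and changed sign without placode-enriched library 1 (0.003). Wnt10b in Sostdc1-high against basal cells lost its call with no replicate block (0.88, adjusted p = 0.0526). At resolution 0.5 no cluster was Sostdc1-high, and at resolution 2 only 1 library had enough suprabasal cells, so those comparisons could not be fitted.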
